A study of Homo sapiens and Mus musculus with 16 samples.

Results

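The enzymes that carry glucose carbon through glycolysis and the tricarboxylic acid (TCA) cycle were examined in the mRNA profiles of AcFBE-treated SK-HEP-1 cells. They form a list of 37 genes out of the 22314 in the mRNA table, taken by gene name as enzymes of these pathways. Of these, 17 belong to glycolysis with lactate dehydrogenase, and 20 were grouped as pyruvate dehydrogenase, the TCA cycle and the malate-aspartate shuttle. The larger group also holds ACO1 and IDH1, cytosolic counterparts of cycle enzymes that are not part of the mitochondrial cycle or the shuttle. SK-HEP-1, an established human liver cancer cell line, was given DMSO alone (U, untreated) or AcFBE, the ethanol extract of Antrodia cinnamomea fruiting bodies dissolved in DMSO, at 0.5 mg/ml (T, treated). RNA was taken after 2 or 4 h, which gives the libraries 2U, 2T, 4U and 4T. Each of the 4 conditions is 1 library of poly(A) RNA. No spread between replicates can therefore be given, no test was made, and every ratio below compares libraries, not conditions.

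Glycolysis splits glucose into pyruvate in the cytosol, and lactate dehydrogenase turns pyruvate into lactate while restoring NAD+. Pyruvate that enters mitochondria is converted by the pyruvate dehydrogenase complex to acetyl-CoA, which the TCA cycle oxidises. The malate-aspartate shuttle uses a cytosolic and a mitochondrial malate dehydrogenase and aspartate aminotransferase to move reducing power from the cytosol into mitochondria. Cancer cells are known for running glycolysis to lactate even when oxygen is present.

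Values are FPKM, fragments per kilobase of transcript scaled to the mapped reads of the library, which puts genes on a common scale. The cDNA was amplified by PCR, and how evenly it represents different transcripts was not tested. Levels of different genes can therefore be compared only roughly. FPKM gives no read count, so the depth behind a single value is unknown. FPKM is also relative to the rest of each library, so fewer cells and less RNA per cell cannot be told apart. Summed FPKM lay between 786224 and 845681, and 8454 to 10691 genes were above 0. Values between 0 and 0.2 FPKM occurred 2656 times in 2U and 1173 times in 2T, but not in 4U or 4T. Among markers, 7 of 8 hepatocyte genes (such as ALB) and 5 of 5 endothelial genes were listed at 0 in all 4 libraries, with SERPINA1 at 8.59 to 18.7 FPKM as the exception. Of 5 mesenchymal markers, VIM stood at 6465 to 13625 FPKM, THY1 at 25.5 to 55.6 and FN1 at 4.92 to 14.5. COL1A2 was listed at 0 in all 4 libraries, and COL1A1 was above 0 only in 4T (0.271).

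A ratio was taken for genes above 0 in both libraries with a mean of at least 1 FPKM over the 4 libraries, and a gene was called higher or lower in the treated library at a ratio of at least 2-fold. Some members did not get every ratio. HK2 (mean 0.507 FPKM), OGDH (0.772), DLST (0.287) and SUCLG2 (0.583) lay under the minimum, and TPI1 was listed at 0 in both 2 h libraries. At 2 h 15 glycolysis members and 17 of the TCA cycle and shuttle were compared, and at 4 h 16 and 17.

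At both times 6 members were at least 2-fold higher in the treated library, and all 6 were listed in the TCA cycle and shuttle group. They are MDH1, PDHB, DLD, SUCLA2, FH and the cytosolic IDH1, which is not itself an enzyme of the mitochondrial cycle or the shuttle. Another 4 were at least 2-fold lower at both times, and all 4 catalyse neighbouring steps of upper glycolysis: the phosphofructokinases PFKM and PFKP and the aldolases ALDOA and ALDOC. The 6 make 35.3% of the 17 TCA cycle and shuttle members compared, against 8.31% of all 5199 genes compared at both times. The 4 make 26.7% of the 15 glycolysis members, against 10.2% of all genes. With a pseudocount of 1 FPKM MDH1 and PDHB stayed past 2-fold at both times, while DLD (0.86 at 2 h), SUCLA2 (0.88 and 0.87), IDH1 (0.90 at 4 h) and FH (0.93 at 4 h) fell short on the log2 scale. PFKM (-0.94 and -0.91) and ALDOC (-0.92 at 2 h) fell short too. Against 4U, IDH1 (0.81), FH (0.87) and ALDOC (-0.98) fell short at 2 h, and centred on all genes PFKM (-0.71) at 4 h. Transcript GC content moved with these ratios. The 6 higher members have canonical transcripts of 37.9 to 44.3% GC and the 4 lower ones of 50.4 to 60.5%, and relative to genes of the same GC content MDH1 was the only member still called at both times. The part of GC content in the ratios is described after the members.

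The promoters of the members at both ends are shown first, MDH1 and PDHB for those higher and PFKP and ALDOA for those lower at both times, to set their sequence makeup beside the ratios. On GRCh37, the build of the mRNA table, the genes span chr2:63815743-63834331 (MDH1), chr3:58413357-58419584 (PDHB), chr10:3108525-3179910 (PFKP) and chr16:30075485-30081778 (ALDOA). Each promoter runs from 250 bases before to 50 bases after the start that RefSeq gives, on GRCh38.p14, read 5′ to 3′ on the strand of the gene: MDH1 at chr2:63588713-63589012 (plus), PDHB at chr3:58433783-58434082 (minus), PFKP at chr10:3067720-3068019 (plus) and ALDOA at chr16:30064029-30064328 (plus). Capitals mark every match, on either strand, to the hypoxia-inducible factor core ACGTG or GCGTG, the E-box CACGTG (which contains ACGTG), the SP1 box GGGCGG or the CCAAT box CCAAT.
MDH1: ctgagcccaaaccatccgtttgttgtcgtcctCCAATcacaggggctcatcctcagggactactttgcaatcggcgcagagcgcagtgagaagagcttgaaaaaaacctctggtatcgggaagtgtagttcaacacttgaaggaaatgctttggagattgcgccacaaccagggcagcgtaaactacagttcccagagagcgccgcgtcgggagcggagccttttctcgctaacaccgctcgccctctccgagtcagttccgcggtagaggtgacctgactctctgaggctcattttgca
PDHB: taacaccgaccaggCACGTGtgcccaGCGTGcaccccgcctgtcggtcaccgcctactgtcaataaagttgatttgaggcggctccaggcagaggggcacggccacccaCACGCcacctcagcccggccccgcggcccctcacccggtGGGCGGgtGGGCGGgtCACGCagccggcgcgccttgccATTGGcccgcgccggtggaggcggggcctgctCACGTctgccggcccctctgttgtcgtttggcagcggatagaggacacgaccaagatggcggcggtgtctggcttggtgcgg
PFKP: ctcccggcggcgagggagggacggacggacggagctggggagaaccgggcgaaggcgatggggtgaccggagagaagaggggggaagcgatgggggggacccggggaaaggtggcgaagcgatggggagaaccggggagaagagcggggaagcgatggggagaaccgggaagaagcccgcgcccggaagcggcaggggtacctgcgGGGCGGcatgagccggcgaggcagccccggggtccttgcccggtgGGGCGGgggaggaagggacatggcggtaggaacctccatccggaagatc
ALDOA: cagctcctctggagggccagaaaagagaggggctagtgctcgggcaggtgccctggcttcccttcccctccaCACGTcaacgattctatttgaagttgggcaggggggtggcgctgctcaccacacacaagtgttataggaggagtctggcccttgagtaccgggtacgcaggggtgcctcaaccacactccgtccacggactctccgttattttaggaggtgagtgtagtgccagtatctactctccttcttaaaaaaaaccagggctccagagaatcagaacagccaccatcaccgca
MDH1 held 1 CCAAT box and none of the other motifs, while PDHB held all 5 kinds. PFKP held 2 SP1 boxes, and ALDOA held 1 ACGTG core on the minus strand. Of the 6 members higher at both times 5 had a CCAAT box in this window, of the 4 lower ones 0, and of all 27305 promoters 35.7%. ACGTG was in 2 of the 6 and 2 of the 4 (21.6% of all promoters), and GCGTG in 4 of the 6 and 1 of the 4 (36.3%). The E-box was in 1 of each set (7.43%) and the SP1 box in 4 of the 6 and 3 of the 4 (44.6%). Over the 36 members matched to a promoter, 12 had ACGTG, 21 GCGTG, 4 the E-box, 25 the SP1 box and 14 the CCAAT box. Median promoter GC was 57.2% for the 6, 67.3% for the 4, 68.2% for all matched members and 58.3% for all promoters. These matches describe letters in a window and are not evidence of binding.

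**Figure D1:**
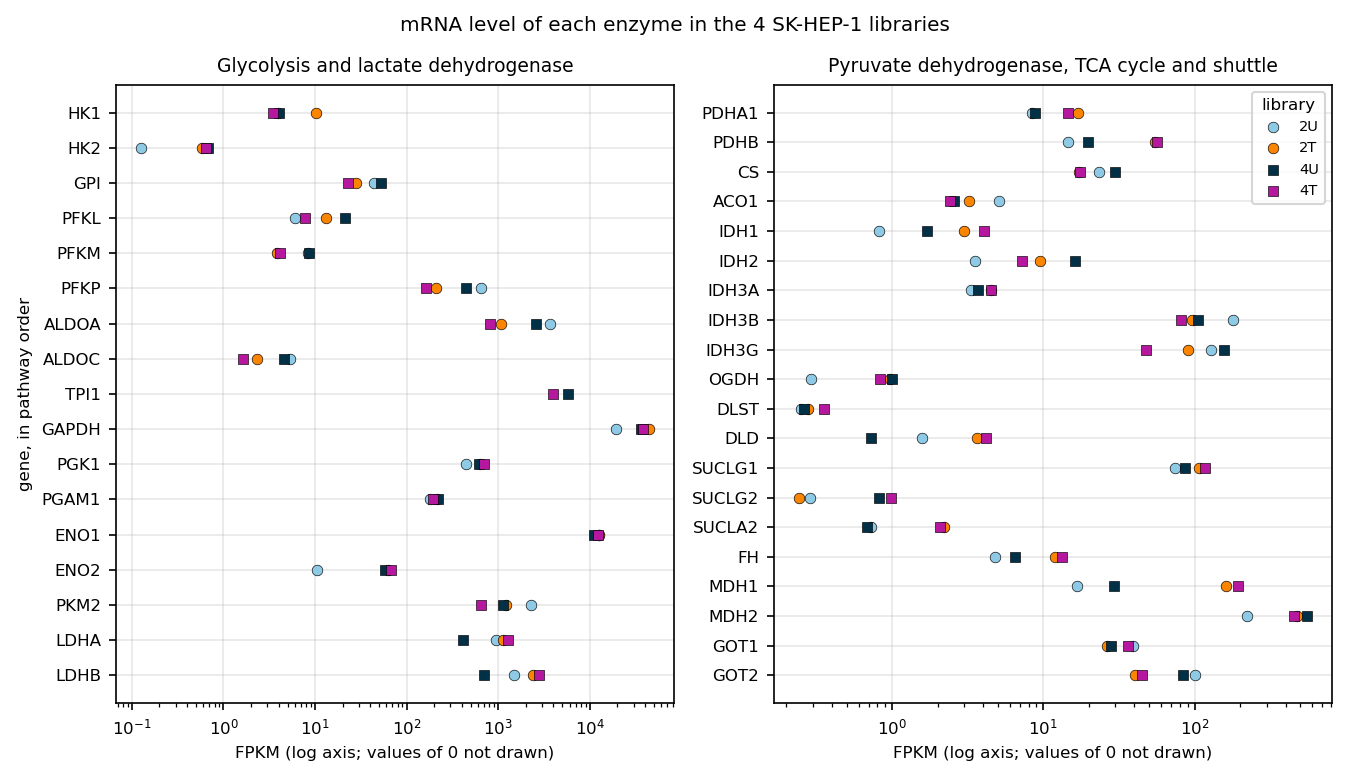
FPKM (log axis) of each member in 2U, 2T, 4U and 4T (1 library each), in pathway order, with glycolysis and lactate dehydrogenase on the left and pyruvate dehydrogenase, the TCA cycle and the shuttle on the right. Treated points sit left of untreated ones for PFKM, PFKP, ALDOA and ALDOC and right of them for PDHB, IDH1, DLD, SUCLA2, FH and MDH1, and the points of TPI1 at 0 in 2U and 2T are not drawn.

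The groups stood at very different levels. The 17 glycolysis members took 5.09% (2U), 8.04% (2T), 7.01% (4U) and 7.39% (4T) of all summed FPKM, against 0.101, 0.143, 0.134 and 0.134% for the 20 TCA cycle and shuttle members. Median level was 182 to 409 FPKM in glycolysis and 6.74 to 14.4 FPKM in the TCA cycle and shuttle. The glycolysis share was higher in the treated library at both times, but GAPDH alone took 2.35, 5.57, 4.28 and 4.60% in the order 2U, 2T, 4U, 4T. Without the 10 most abundant genes of the table, GAPDH and ENO1 among them, the glycolysis share was instead lower in the treated library, at 1.51% against 1.19% at 2 h and 1.91% against 1.69% at 4 h. The 4 h direction of that lower share rested on TPI1. Without TPI1 as well, a choice added after the data were seen, it was 0.996% in 4U and 1.07% in 4T, higher in the treated library. With the 10 most abundant genes kept and only TPI1 left out, the glycolysis share was 6.32% in 4U and 6.91% in 4T.

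Hexokinase commits glucose to the cell by phosphorylation. HK1 stood at 3.92 FPKM (2U), 10.2 (2T), 4.07 (4U) and 3.47 (4T). The library 2T was alone high, 2.61-fold above 2U, while the other 3 lay close together. HK2, the isoform induced in many tumours, was barely present, at 0.126, 0.581, 0.673 and 0.647 FPKM in the same order. GPI, which converts glucose 6-phosphate to fructose 6-phosphate, stood at 43.5 FPKM (2U), 28.2 (2T), 52.2 (4U) and 22.9 (4T). Both treated libraries lay below both untreated ones, by a log2 ratio of -0.62 at 2 h and -1.19 at 4 h.

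Phosphofructokinase catalyses the committed step of glycolysis and has liver (PFKL), muscle (PFKM) and platelet (PFKP) forms. PFKP carried the step, with 641 FPKM (2U), 208 (2T), 450.0 (4U) and 161 (4T). The treated libraries held 0.325 and 0.359 of the untreated level at 2 and 4 h, without overlap. PFKM stood at 8.34, 3.87, 8.60 and 4.10 FPKM in the same order, with treated libraries again low (log2 ratios -1.11 and -1.07). PFKL did not follow them. It stood at 6.04 FPKM (2U), 13.2 (2T), 21.0 (4U) and 7.79 (4T), log2 ratios of 1.13 at 2 h and -1.43 at 4 h, around untreated libraries that were themselves 3.47-fold apart. Because PFKP made up 92.4 to 97.8% of the summed level of the 3 forms, the step as a whole stood at 655 FPKM (2U), 225 (2T), 479.5 (4U) and 173 (4T).

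Aldolase cleaves fructose 1,6-bisphosphate into triose phosphates. ALDOA, the ubiquitous form, stood at 3706 FPKM (2U), 1071 (2T), 2561 (4U) and 818 (4T). The treated libraries held 0.289 and 0.319 of the untreated level, the lowest ratios of any glycolysis member at either time. ALDOC, the brain form, was lower by a similar factor at a far lower level, with 5.34, 2.34, 4.61 and 1.63 FPKM in the same order (log2 ratios -1.19 and -1.50). Triosephosphate isomerase, TPI1, was listed at 0 in each 2 h library, and stood at 5818 FPKM (4U) and 3956 FPKM (4T) later. Of the 806 genes above 100 FPKM in some library, 26 were listed at 0 in both 2 h libraries and 0 in both 4 h libraries, so such a 0 may be a failed estimate and not a level.

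In lower glycolysis no member was called in the same direction at both times. GAPDH, which oxidises glyceraldehyde 3-phosphate, was the most abundant mRNA of the table by mean FPKM, at 19176 FPKM (2U), 43767 (2T), 36197 (4U) and 38022 (4T). The library 2U was low and the others lay together, so the 2.28-fold ratio at 2 h stood against 1.05-fold at 4 h. ENO2, the neuronal enolase, had the same shape, with 10.6 FPKM in 2U against 62.4 in 2T, 57.6 in 4U and 67.1 in 4T. ENO1, the main enolase, varied little, at 12609, 12475, 10996 and 12339 FPKM in the order 2U, 2T, 4U, 4T. It held at least 99.5% of enolase FPKM in every library.

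PGK1, which makes the first ATP of glycolysis, stood at 446 FPKM (2U), 636 (2T), 622 (4U) and 693 (4T). Its treated libraries lay above both untreated ones, but 2T exceeded 4U only slightly. PGAM1, a phosphoglycerate mutase, stood at 182, 215, 222 and 192 FPKM, with treated and untreated levels overlapping. PKM2, listed under its older symbol for pyruvate kinase PKM, stood at 2304 FPKM (2U), 1209 (2T), 1118 (4U) and 646 (4T). It was lower in the treated library at both times, without reaching 2-fold (log2 ratios -0.93 and -0.79), and 4U was as low as 2T.

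The lactate dehydrogenases stood apart from the rest of glycolysis. LDHA, the muscle form, stood at 957 FPKM (2U), 1140 (2T), 409 (4U) and 1293 (4T). LDHB, the heart form, stood at 1470.0, 2377, 701 and 2798 FPKM in the same order. Both were higher in treated libraries without overlap, by 1.19-fold and 1.62-fold at 2 h and by 3.16-fold and 3.99-fold at 4 h. The library 4U was low for both, at 0.428 and 0.477 of 2U, while 4T and 2T differed by 1.14-fold and 1.18-fold. With 2U as the reference for 4T, a choice added after the data were seen, both calls were lost, at 1.35-fold for LDHA and 1.90-fold for LDHB. The 1 glycolysis member then called higher at 4 h was ENO2 (6.31-fold).

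GAPDH, PGK1, TPI1, LDHA, LDHB, ENO1, PGAM1, ALDOA, PKM2, GOT2 and MDH1 have processed pseudogenes or close paralogs. Short reads could be split among the copies, so their levels are less certain.

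**Figure D2:**
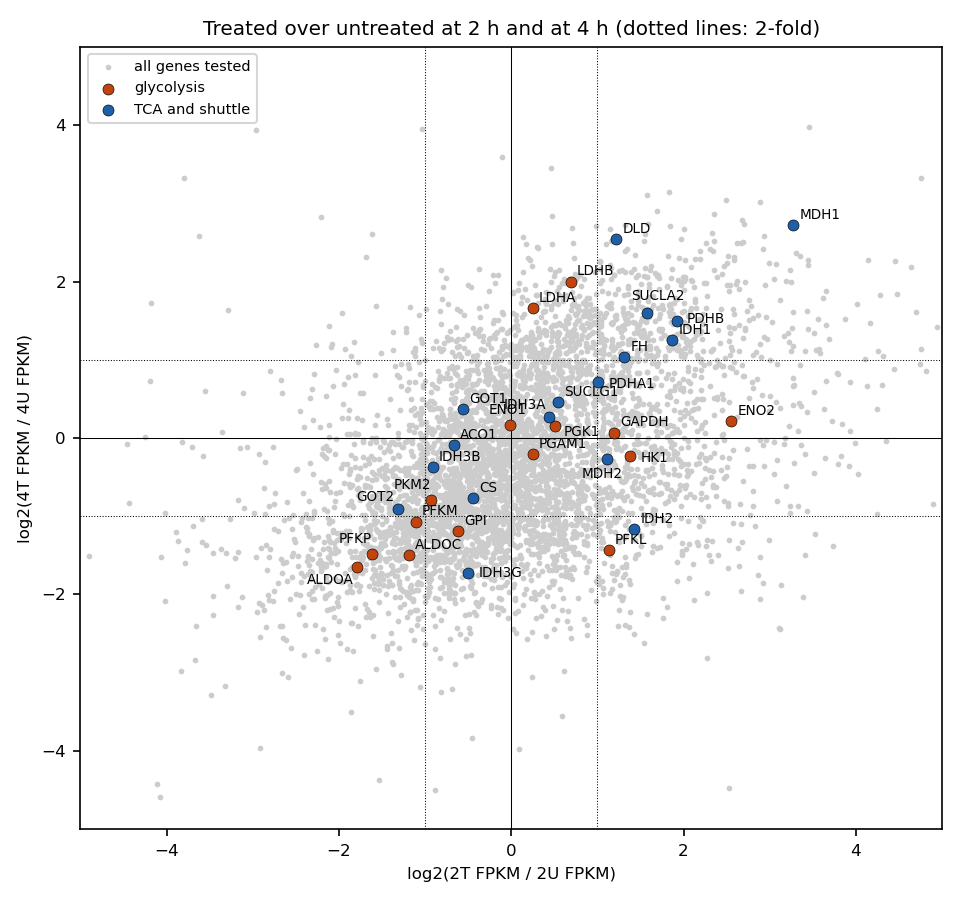
Log2 ratio of treated over untreated FPKM at 2 h (x) and 4 h (y), with glycolysis members in red, TCA cycle and shuttle members in blue and all 5199 genes compared at both times in grey (genes beyond 5 on either axis are not drawn). MDH1 sits far in the upper right at 3.27 and 2.72, and PFKP, ALDOA, ALDOC and PFKM lie in the lower left beyond the dotted 2-fold lines.

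The pyruvate dehydrogenase complex admits pyruvate carbon to the TCA cycle. Its beta subunit PDHB stood at 14.6 FPKM (2U), 55.1 (2T), 19.8 (4U) and 56.2 (4T). The treated libraries agreed closely and lay 3.78-fold and 2.84-fold above the untreated ones. The alpha subunit PDHA1 stood at 8.36, 16.9, 8.85 and 14.6 FPKM in the same order, higher by 2.02-fold and 1.65-fold, without overlap. DLD, the dihydrolipoamide dehydrogenase shared by this and the oxoglutarate dehydrogenase complex, stood at 1.57 FPKM (2U), 3.65 (2T), 0.720 (4U) and 4.18 (4T). Its treated libraries were high, by log2 ratios of 1.22 and 2.54, and the larger ratio was taken against the lower untreated library. DLAT and PDHX, the remaining core and binding subunits of the complex, are not members of the list but were also at least 2-fold higher at both times. DLAT stood at 0.567, 1.66, 0.483 and 1.52 FPKM and PDHX at 0.317, 3.61, 1.42 and 3.62 FPKM, in the order 2U, 2T, 4U, 4T. These are low levels, and DLAT has a low transcript GC content (40.3%). The alternatives with a pseudocount or relative to GC content were run for members only, so these 2 calls were not checked in that way.

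Citrate synthase, CS, opens the cycle and stood at 23.3 FPKM (2U), 17.2 (2T), 29.9 (4U) and 17.5 (4T). Treated libraries were low without reaching 2-fold (log2 ratios -0.44 and -0.77). ACO1, the cytosolic aconitase that also acts as an iron sensor, stood at 5.12, 3.21, 2.56 and 2.41 FPKM, where 2U was high and the rest overlapped.

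The isocitrate dehydrogenases went in different directions. IDH1, the cytosolic NADP-dependent form, stood at 0.822 FPKM (2U), 2.99 (2T), 1.71 (4U) and 4.05 (4T), without overlap and 3.64-fold and 2.37-fold higher in treated libraries. IDH2, its mitochondrial counterpart, stood at 3.53, 9.55, 16.2 and 7.27 FPKM in the same order. It was 2.70-fold higher in 2T and at 0.448 of 4U in 4T, around untreated libraries 4.59-fold apart. Among the subunits of the NAD-dependent enzyme of the cycle, IDH3A stood at 3.33, 4.52, 3.70 and 4.48 FPKM, slightly higher in treated libraries. IDH3B stood at 180.4, 95.7, 106 and 81.6 FPKM and IDH3G at 128, 90.6, 156 and 47.5 FPKM. Both were lower in treated libraries without overlap, and IDH3G passed 2-fold at 4 h only (log2 ratio -1.72). The catalytic subunit IDH3A thus stood far under its partners, at 1.07 to 3.35% of the summed level of the 3 subunits. Its canonical transcript has 4083 bases, against 1542 for IDH3B and 1335 for IDH3G. Whether transcript length bears on these levels was not tested.

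Of the oxoglutarate dehydrogenase complex, OGDH stood at 0.292 FPKM (2U), 0.975 (2T), 0.992 (4U) and 0.829 (4T), and DLST at 0.251, 0.278, 0.262 and 0.355 FPKM. Both were too low to compare. Succinate-CoA ligase makes succinate. Its common alpha subunit SUCLG1 stood at 73.7, 107, 86.0 and 118 FPKM, higher in treated libraries by 0.54 and 0.46 on the log2 scale without overlap. SUCLA2, the beta subunit of the ADP-forming enzyme, stood at 0.730 FPKM (2U), 2.19 (2T), 0.687 (4U) and 2.08 (4T), with log2 ratios of 1.58 and 1.60 that nearly coincided. SUCLG2, the beta subunit of the GTP-forming enzyme, stood at 0.287, 0.243, 0.818 and 0.985 FPKM, under the minimum. Fumarase, FH, stood at 4.78 FPKM (2U), 11.9 (2T), 6.49 (4U) and 13.2 (4T), 1.31 and 1.03 higher in treated libraries on the log2 scale, without overlap.

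Malate dehydrogenase gave the largest ratios of all members. MDH1, the cytosolic enzyme of the shuttle, stood at 16.8 FPKM (2U), 162 (2T), 29.5 (4U) and 194 (4T), which is 9.62-fold higher in the treated library at 2 h and 6.59-fold at 4 h. Both treated libraries were high and both untreated ones low. The mitochondrial MDH2 stood at 221, 476, 551 and 456 FPKM, with 2U alone low (log2 ratios 1.11 and -0.27). Of the aspartate aminotransferases, the cytosolic GOT1 stood at 39.1, 26.5, 28.2 and 36.5 FPKM, overlapping. The mitochondrial GOT2 stood at 100.3 FPKM (2U), 40.3 (2T), 83.9 (4U) and 44.7 (4T), lower in treated libraries without overlap (log2 ratios -1.31 and -0.91).

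The balance between cytosolic and mitochondrial forms was read as the share of each pair. MDH1 made up 7.06% (2U), 25.3% (2T), 5.07% (4U) and 29.9% (4T) of the summed FPKM of MDH1 and MDH2. GOT1 made up 28.1, 39.6, 25.2 and 45.0% of its pair, and IDH1 18.9, 23.9, 9.51 and 35.8% of the NADP-dependent pair. The cytosolic share was higher in the treated library for all 3 pairs at both times. The forms of a pair differ in transcript GC (IDH1 41.8% and IDH2 55.5%, MDH1 43.1% and MDH2 52.1%). Relative to genes of the same GC content the IDH pair turned direction at 2 h, with log2 ratios of 1.28 for IDH1 and 1.74 for IDH2. LDHA went the other way within lactate dehydrogenase, from 39.4 to 32.4% at 2 h and from 36.8 to 31.6% at 4 h. PDHB made up 63.6, 76.6, 69.1 and 79.4% of the summed level of PDHB and PDHA1.

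**Figure D3:**
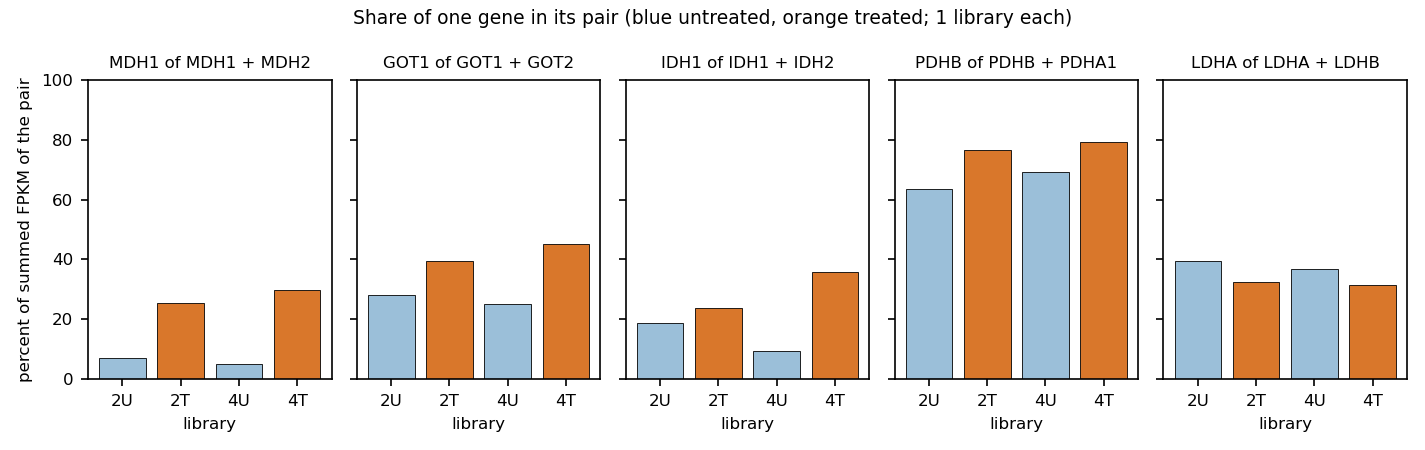
Percent of the summed FPKM of a pair taken by MDH1, GOT1, IDH1, PDHB and LDHA in 2U, 2T, 4U and 4T (1 library each, no error bars). The treated bars (orange) exceed the untreated ones (blue) at both times for MDH1, GOT1, IDH1 and PDHB, from 7.06 to 25.3% for MDH1 at 2 h, and lie under them for LDHA.

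Taking each time point over the members compared, 9 of 17 TCA cycle and shuttle members (52.9%) and 4 of 15 glycolysis members (26.7%) were at least 2-fold higher in 2T than in 2U, beside 22.6% of all 5211 genes compared. At least 2-fold lower were 1 and 4 members, beside 18.7% of all genes. At 4 h 6 of 17 (35.3%) and 2 of 16 (12.5%) were higher, beside 16.4% of all 5392 genes, and 2 and 6 were lower, beside 27.7%. Centred on the median of all genes, the TCA cycle and shuttle members at 4 h counted 7 higher and 1 lower in place of 6 and 2, and the glycolysis members 2 higher and 4 lower in place of 2 and 6. Relative to genes of the same GC content, 2 TCA cycle and shuttle members and 1 glycolysis member were higher at 4 h and 0 of either group lower. The median log2 ratio was 1.01 for the TCA cycle and shuttle, 0.25 for glycolysis and 0.03 for all genes at 2 h. Without pseudogene-rich members the glycolysis median was -0.62, and the TCA cycle and shuttle median was 0.43 against the mean of both untreated libraries and 0.32 against 4U. At 4 h the median of all genes itself lay at -0.35, and the medians of 0.37 and -0.39 were 0.73 and -0.04 after centring on it. The groups' medians differed by 0.77 at either time, with a size that depended on the choices made. Relative to genes of the same GC content the difference was 0.47 at 2 h and 0.13 at 4 h. It was 0.33 at 2 h against the mean of both untreated libraries and 0.29 against 4U, and 0.28 at 4 h with a minimum of 5 FPKM. Without pseudogene-rich members it was 1.63 at 2 h and 1.56 at 4 h.

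Both treated libraries lay above both untreated ones for 9 TCA cycle and shuttle members (52.9%) and 5 glycolysis members (33.3%), beside 24.7% of all genes. Both lay below for 4 (23.5%) and 5 (33.3%), beside 33.9% of all genes, so the shares on the lower side were near or under the background. The ratios at 2 and 4 h, which share no library, had the same sign for 25 of 32 members (78.1%) and for 66.0% of all genes. Across genes, which are not independent replicates, they correlated at a Pearson's r of 0.67 over the 32 members and 0.43 over all 5199 genes.

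The untreated libraries themselves differed. Comparisons across times carry the limit given above, that like processing of the 2 h and 4 h columns was not tested. Between 4U and 2U, 5 members were at least 2-fold higher in 4U (PFKL, ENO2, IDH1, IDH2 and MDH2), beside 21.6% of all genes, and 4 lower (PKM2, LDHA, LDHB and DLD), beside 9.89%. Between 4T and 2T, 0 members were at least 2-fold higher, beside 4.15% of all genes, and HK1 was lower, beside 5.19%. In 2U, 4 members lay below the other 3 libraries by more than those 3 spanned (GAPDH, PGK1, ENO2 and MDH2) and 3 lay above (PKM2, ACO1 and IDH3B), beside 13.5 and 7.02% of all genes, so these counts are near the background. In 4U ENO1, LDHA and LDHB lay below (6.35% of all genes). Of the treated libraries, 2T stood apart for HK1 (high, 1.38% of all genes) and 4T for IDH3G (low, 5.33%). For these members a ratio at one time point rests on a library that stood apart. With 4U as the reference at both times, also added after the data were seen, 4 TCA cycle and shuttle members were higher at 2 h in place of 9.

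GC content of the canonical transcript ran with the ratios. Over all genes the log2 ratio correlated with it at a Pearson's r of -0.24 at 2 h (4945 genes) and -0.65 at 4 h (5100 genes), and over members at -0.42 (32) and -0.84 (33). At 4 h the fifth of genes with the lowest GC had a median log2 ratio of 1.02 and that with the highest GC -1.17. At 2 h these medians were 0.72 and -0.09. Members of the TCA cycle and shuttle had a median transcript GC of 46.6% and those of glycolysis 54.0%, so the groups differ in this property too. Within glycolysis the low-GC members were LDHA (41.8%), PGK1 (42.8%) and LDHB (43.7%), of which LDHA and LDHB were the only glycolysis members called higher at 4 h.

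Ratios were therefore also taken relative to the median of genes of the same GC content, in 20 bins, a choice added after the data were seen. MDH1 then stood at 2.78 at 2 h and 1.84 at 4 h on the log2 scale and was the only 1 of 32 members at least 2-fold higher at both times, beside 3.85% of genes. None (0 of 32) was at least 2-fold lower at both times, beside 4.54%. PDHB stood at 1.41 and 0.86, IDH1 at 1.28 and 0.20, and FH at 0.83 and 0.15. SUCLA2 stood at 0.51 at both times and DLD at 0.14 and 1.45. PFKP stood at -1.34 and -0.67, ALDOA at -1.63 and -0.53, PFKM at -0.82 and -0.89, and ALDOC at -0.77 and -0.78. All 10 thus kept their direction and 9 of them lost the 2-fold call at one time or both. LDHB stood at 1.12 at 4 h and LDHA at 0.61. Whether GC content itself produced the ratios was not tested.

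**Figure D4:**
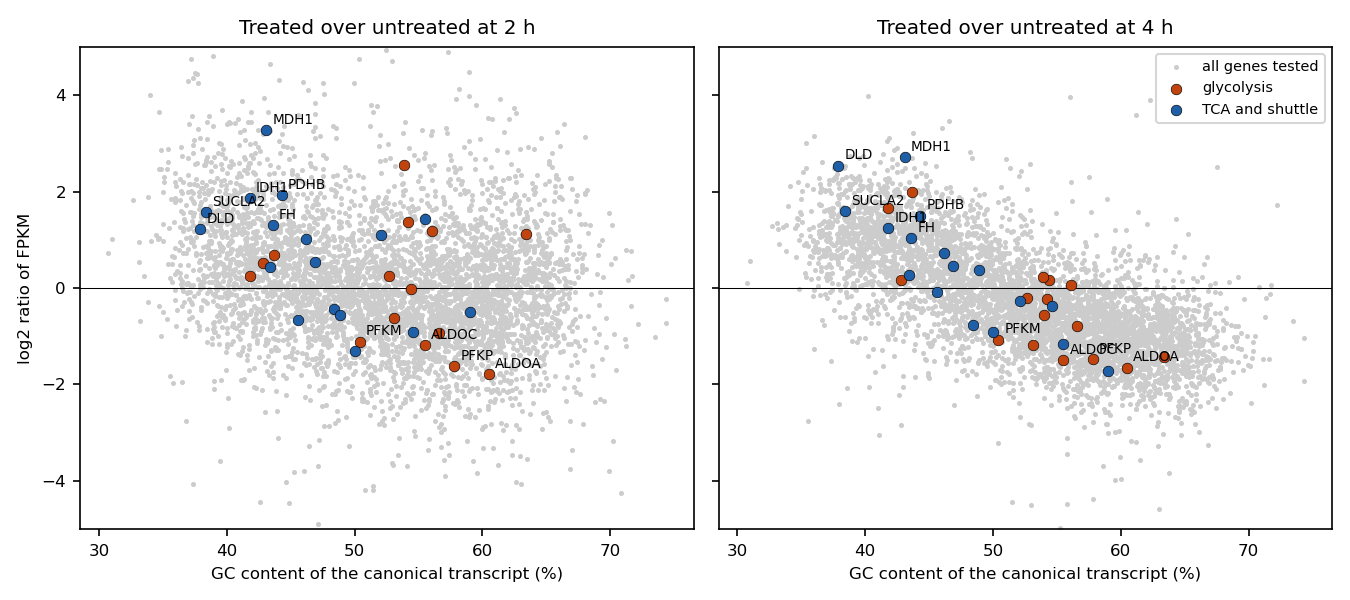
Log2 ratio of treated over untreated FPKM against GC content of the canonical transcript (%), at 2 h (left) and 4 h (right), for glycolysis (red), TCA cycle and shuttle (blue) and all genes compared (grey, beyond 5 not drawn). Ratios decline with GC, more steeply at 4 h (r of -0.65 over all genes) than at 2 h (-0.24), and MDH1 lies near the top of the grey cloud at its GC content at both times.

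The members' surroundings in the pathways were covered by 9 lists of 65 further genes, of which 26 reached the minimum. At 2 h 7 of 25 (28%) were at least 2-fold higher and 7 (28%) lower, beside 22.6 and 18.7% of all genes. At 4 h 2 of 26 (7.69%) were higher and 7 (26.9%) lower, beside 16.4 and 27.7%. Only DLAT and PDHX, given above, were higher at both times (8% of 25, beside 8.31% of all genes). At least 2-fold lower at both times were 4 of 25 (16%), beside 10.2% of all genes, and 3 of these are carriers. SLC2A1, the basal glucose transporter, stood at 39.8 FPKM (2U), 14.5 (2T), 47.6 (4U) and 11.9 (4T). SLC25A11, the oxoglutarate-malate carrier of the shuttle, stood at 77.2, 21.9, 44.7 and 16.5 FPKM, and SLC25A1, the mitochondrial citrate carrier, at 105, 34.3, 98.4 and 17.1 FPKM. In these 3 genes both treated libraries were low, as in PFKP and ALDOA, while the carrier SLC25A11 was low where its shuttle partner MDH1 was high. The calls of these 3 carriers, like those of DLAT and PDHX, were not checked with a pseudocount or relative to GC content. Listed at 0 in all 4 libraries were 11 genes, among them the gluconeogenic PCK1, G6PC, FBP1 and FBP2.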

How the data were processed

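The report uses the mRNA table of the 4 SK-HEP-1 libraries (2U, 2T, 4U, 4T). The small RNA tables were not used. mRNA was amplified by PCR as cDNA and sequenced on SOLiD 3. The FPKM values were deposited by the authors, made from reads aligned to hg19 (Bowtie in the study's methods, TopHat in the submitters' processing notes) with Cufflinks. Gene annotation and versions are not given in the sources used here. Columns of gene category notes were not used. FPKM were used without a pseudocount, and ratios needed values above 0 in both libraries and a mean of at least 1 FPKM. With 1 library per condition no test was made, and calls are at 2-fold. Every member was named, and other pathway genes when at least 2-fold apart in one direction at both times. A few of these genes are not reported here. The members and lists were chosen with earlier results of these data known. Transcript GC came from canonical transcripts of GENCODE v44lift37 on GRCh37 (18591 of 22314 genes matched, and all 37 members) and promoters from RefSeq (36 members). Alternatives covered pseudocount, minimum, scaling, fold, reference library, pseudogene-rich members and GC. Python 3.11.15, numpy 2.4.6, pandas 2.3.3 and matplotlib 3.10.9 were used, and the ratio code was tested on simulated data.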

Additional observations from a re-analysis of the deposited data

Results flagged for a closer look

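Some results differed in direction between 2 h and 4 h, and these differences were not tested since each rests on 1 library per condition. The log2 ratio at 4 h minus that at 2 h was -2.59 for IDH2, -2.56 for PFKL, -1.61 for HK1, -1.38 for MDH2 and -0.45 for PGAM1, all higher in the treated library at 2 h and lower at 4 h. The opposite order held for GOT1 (0.94) and ENO1 (0.18). The median of the glycolysis members differed by -0.64, from 0.25 at 2 h to -0.39 at 4 h. This difference in direction was gone without pseudogene-rich members (-0.62 and -1.19) and relative to genes of the same GC content (0.03 and 0.02). The median of all genes at 4 h lay at -0.35, and HK1 (-0.23), PGAM1 (-0.21) and MDH2 (-0.27) lay above it at 4 h.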

How the results depend on the processing

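No paired analysis was possible because the mRNA labels carry no replicate numbers and each condition is 1 library. The ratios pair treated with untreated by time, and a fit of treatment with time as a term, which would leave 1 residual degree of freedom, was not run. Depth per gene is unknown from FPKM. Under the alternatives 128 medians, differences and counts kept their direction and, for counts, stayed within 1.5 times. Another 26 counts and group shares moved, and 2 medians changed sign. Differences counted as kept could be far smaller, such as 0.13 in place of 0.77 at 4 h relative to GC content. The 128 also include values fixed in advance, because scaling or centring a whole library cannot alter the difference between the groups' medians. The 10 genes called at both times kept their direction in all alternatives run (MDH1 1.84 to 3.53, PFKP -1.99 to -0.67), and 26 values fell short of 2-fold while 162 did not. The 162 include values that repeat the main one, because changing the minimum or leaving out other members cannot alter a gene's own ratio. The 10 genes were also picked for passing 2-fold in the main setting, so these counts do not measure how stable the calls are. The cause of the differences below was not tested, apart from those that follow from the alternative's own construction. Without pseudogene-rich members the 2 h glycolysis median was -0.62 and not 0.25, 0 TCA cycle and shuttle members were lower at 2 h, and 0 glycolysis members higher at 4 h. With a pseudocount of 1 FPKM 2 glycolysis members were lower at 2 h and 3 TCA cycle and shuttle members higher at 4 h, and with a minimum of 5 FPKM 3 again. At 1.5-fold, 3 TCA cycle and shuttle members were lower at 2 h and 4 at 4 h. Centring on all genes or the upper quartile left 1 lower at 4 h. Without the 10 highest genes the group shares were 1.51, 1.19, 1.91 and 1.69% for glycolysis and 0.127, 0.192, 0.179 and 0.176% for the TCA cycle and shuttle (2U, 2T, 4U, 4T), and without TPI1 as well, added after the data were seen, 1.51, 1.19, 0.996 and 1.07% for glycolysis. Added after the data were seen, values relative to genes of the same GC content gave a 4 h glycolysis median of 0.02. They gave 2 glycolysis members lower and 5 TCA cycle and shuttle members higher at 2 h. At 4 h they gave 1 glycolysis member higher and 0 lower, and 2 TCA cycle and shuttle members higher and 0 lower. With 4U as the reference 4 TCA cycle and shuttle members were higher at 2 h. With 2U as the reference 1 glycolysis member was higher and 4 TCA cycle and shuttle members lower at 4 h.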

Other observations

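SDHA and SDHB, succinate dehydrogenase subunits that the member list does not hold, lay in different directions. These genes were singled out after their values were seen. SDHA, the flavoprotein subunit, stood at 77.7 FPKM (2U), 38.4 (2T), 40.8 (4U) and 29.6 (4T). It was lower in the treated library at both times (log2 ratios -1.02 and -0.46), but 2T lay close to 4U and 2U was high. SDHB, the iron-sulphur subunit, stood at 93.2, 152, 110.4 and 162 FPKM in the same order, high in treated libraries. The other subunits, SDHC and SDHD, lay under the minimum, with log2 ratios of 2.32 and 0.61 and of 4.35 and 0.92. The mitochondrial pyruvate carrier gene listed as BRP44 was listed at 0 in each 2 h library and stood at 54.7 FPKM (4U) and 34.8 FPKM (4T) later, the same listing pattern as TPI1. MYC, a regulator of many glycolysis genes, stood at 5.14, 15.3, 55.0 and 11.6 FPKM, with 4U alone high.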
